A study of Mus musculus with 4 samples.

Results

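Ripk2, Map3k7, Map3k8, Otulin and Akirin2 encode kinases and regulators of the NF-kB pathway, and their rows were taken by symbol from 4 count tables of the mouse lymph node. Each symbol matched 1 row, so the set held 5 of the 56748 gene IDs in each table. The samples were lymph nodes of mice with EAE (experimental autoimmune encephalomyelitis), in which an immune attack on brain and spinal cord is provoked on purpose. Of the 4 mice, 2 had been treated with BrQ (2-bromo-1,4-naphthalenedione, a brominated naphthoquinone) and 2 formed the control group, labelled Vehicle; all 4 had EAE. Total RNA gave 1 library per mouse, numbered 1 and 3 in each group. The sources used here do not give the strain, age, dose, time of treatment or the way EAE was induced.

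NF-kB is a family of transcription factors that is held inactive in the cytoplasm by IkB proteins. Receptors for bacterial products, cytokines and antigen recruit kinases and ubiquitin ligases, which activate the IkB kinase complex; that complex marks IkB for destruction and frees NF-kB to enter the nucleus. In lymph nodes the pathway is known for its part in the activation and survival of B and T cells and in inflammatory gene expression. Ripk2 is the kinase that carries the signal of the NOD1 and NOD2 receptors. Map3k7 encodes TAK1, the kinase that activates the IkB kinase complex. Map3k8 encodes TPL2 (COT), a kinase bound to the NF-kB precursor p105 that links the pathway to ERK signalling. Otulin is a deubiquitinase that takes linear ubiquitin chains apart, and Akirin2 is a nuclear protein that takes part in the expression of a subset of NF-kB target genes.

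The RefSeq promoter windows of GRCm38.p6, from 250 bases before to 50 bases after the transcript start, held 3 of the 5 genes. They are shown because NF-kB factors bind the kappaB motif, so a match is of interest in genes that themselves act in the pathway. Map3k7 lies at chr4:31963857-31964156 (plus strand), Otulin at chr15:27630644-27630943 (minus strand) and Akirin2 at chr4:34550365-34550664 (plus strand). Each is printed 5′ to 3′ on the strand of its gene. Capitals mark the kappaB match in Map3k7 and the GC boxes (GGGCGG on either strand) in Otulin and Akirin2.
Map3k7: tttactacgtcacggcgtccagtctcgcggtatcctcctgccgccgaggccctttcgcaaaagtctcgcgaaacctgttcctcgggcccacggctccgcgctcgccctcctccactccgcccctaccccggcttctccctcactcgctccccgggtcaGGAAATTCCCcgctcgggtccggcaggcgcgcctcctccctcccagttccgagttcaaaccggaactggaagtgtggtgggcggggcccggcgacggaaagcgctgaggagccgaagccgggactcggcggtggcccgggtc
Otulin: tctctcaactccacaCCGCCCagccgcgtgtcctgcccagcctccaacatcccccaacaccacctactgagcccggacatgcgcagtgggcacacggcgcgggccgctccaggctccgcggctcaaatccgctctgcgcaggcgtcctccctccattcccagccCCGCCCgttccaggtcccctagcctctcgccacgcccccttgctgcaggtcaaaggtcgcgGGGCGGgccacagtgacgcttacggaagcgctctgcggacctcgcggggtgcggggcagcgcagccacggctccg
Akirin2: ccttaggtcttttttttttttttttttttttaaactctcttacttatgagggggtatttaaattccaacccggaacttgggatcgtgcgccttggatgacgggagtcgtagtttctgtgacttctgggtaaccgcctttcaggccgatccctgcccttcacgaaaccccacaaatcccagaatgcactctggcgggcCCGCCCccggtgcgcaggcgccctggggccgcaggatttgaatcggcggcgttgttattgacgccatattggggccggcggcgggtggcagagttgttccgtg

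Both strands were searched with the degenerate kappaB consensus. The window of Map3k7 held 1 match, GGAAATTCCC as read along the gene, which is the motif on the opposite strand. It began 92 bases before the transcript start. No match lay in the windows of Otulin and Akirin2. Of 32851 promoter windows in the table, 8.46% held a match, so a match in 1 of 3 windows is no count to set against that share. GC boxes were found in all 3 windows, 2 in Map3k7, 3 in Otulin and 1 in Akirin2, against 35.7% of all windows with at least 1. The CRE core TGACGT was found once, in Map3k7 (7.51% of all windows). TATAAA was found in none of the 3 (13.6% of all windows). The matches describe the letters only.

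In the GENCODE M21 annotation of GRCm38, all 5 genes are protein coding. Ripk2 lies on chromosome 4 from 16122733 to 16163647 (minus strand), Map3k7 on chromosome 4 from 31964097 to 32023467 (plus strand) and Akirin2 on chromosome 4 from 34550937 to 34566908 (plus strand). Map3k8 lies on chromosome 18 from 4331327 to 4353015 and Otulin on chromosome 15 from 27542635 to 27630693, both on the minus strand. The promoter window of Akirin2 shown above ends at 34550664, before the start of the gene in GENCODE M21. The RefSeq and GENCODE annotations thus place the start of Akirin2 differently. By the GENCODE annotation no exonic base of the 5 genes is shared with an exon of another gene. The reads in gene intervals numbered 6813832 to 7989226 per library.

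Most gene names in these tables look displaced from their reads, so the surroundings of the 5 genes were examined first. Across the 21881 protein-coding genes away from them, 22.3% had a mean of at least 50 reads per library, with a median of 0.50 reads. Within 1000 kb of the start of a member the share was 4 of 5 genes for Ripk2, 5 of 6 for Map3k7, 5 of 7 for Map3k8, 3 of 5 for Otulin and 7 of 13 for Akirin2. Filled intervals were thus more common around the 5 genes than elsewhere, and least so around Akirin2. The 5 genes had been taken from stretches where names appeared to hold their own reads. Filled surroundings followed from that choice, so the comparison cannot show that the 5 names are right.

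A few neighbours, chosen after their values were seen, are given as examples of filled and empty intervals. Nbn, a DNA repair protein, held 384 to 646 reads per library beside Ripk2. Mtpap, the mitochondrial poly(A) polymerase, held 650 to 812 reads only 22.6 kb from the start of Map3k8. Orc3, a subunit of the origin recognition complex, held 1273 to 1806 reads 64.0 kb from Akirin2. The 6 neighbours at 0 reads in all 4 libraries are known from tissues other than lymph node: Calb1 of neurons, Gja10 of the retina, Lyzl1 of the testis, Dnah5 of ciliated cells and Cga of the pituitary, with Cfap206 of cilia beside them. These values describe the neighbourhoods; that each name holds its own reads was not shown gene by gene.

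**Figure D1:**
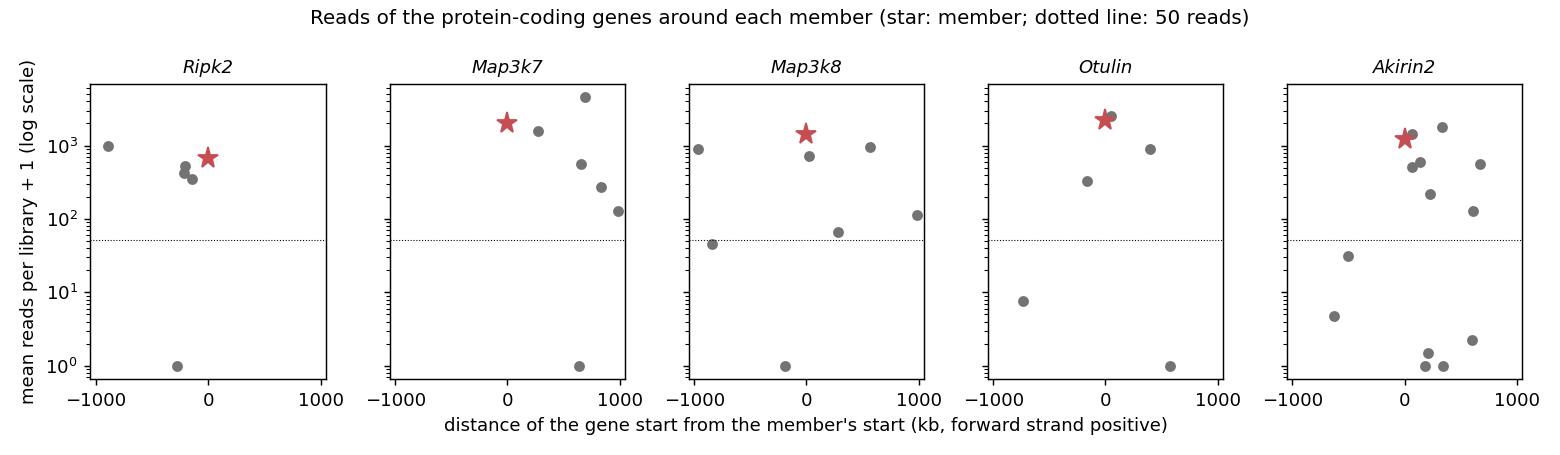
Mean reads per library plus 1 (log axis) of each protein-coding gene within 1000 kb of a member, against the distance of its start from the member's start in kb. The star is the member and the dotted line marks 50 reads; most neighbours lie above the line and a few lie at 0 reads.

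Ripk2, the kinase downstream of the NOD receptors, was higher in BrQ. Its read counts were 848 and 1002 in BrQ replicates 1 and 3, against 457 and 386 in Vehicle replicates 1 and 3. As CPM (reads per 1000000 reads in genes), scaled with trimmed-mean (TMM) factors, these were 107.1 and 129.3 CPM in BrQ against 66.4 and 59.2 CPM in Vehicle. Both BrQ libraries lay above both Vehicle libraries. The group means were 118.2 ± 15.7 and 62.8 ± 5.07 CPM (SD, n = 2 each), a 1.88-fold difference. The log2 fold change was 0.91 (SE 0.17, 95% interval 0.54 to 1.29), with adjusted p = 0.00218 by edgeR's quasi-likelihood test with Benjamini-Hochberg adjustment over all features tested. It passed under each of the 16 alternative settings, with log2 fold changes from 0.78 to 1.28, and the highest adjusted p, 0.0426 (edgeR), came without BrQ replicate 3.

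Map3k8, the TPL2 kinase, was also higher in BrQ, by less. Its read counts were 1615 and 1932 in BrQ against 1098 and 1159 in Vehicle, or 204.0 and 249.3 CPM against 159.5 and 177.9 CPM. The groups did not overlap, but BrQ replicate 1 stood closer to Vehicle replicate 3 than to BrQ replicate 3. The means were 226.6 ± 32.0 and 168.7 ± 13.0 CPM (SD, n = 2 each), a 1.34-fold difference. The log2 fold change was 0.43 (SE 0.15, 95% interval 0.08 to 0.77), with adjusted p = 0.0447 by edgeR's quasi-likelihood test. This call was close to the threshold of 0.05 and was lost under 9 of 16 alternatives, among them each of the 4 in which 1 library was left out. Without BrQ replicate 3 the log2 fold change was 0.29 (adjusted p = 0.338, edgeR), and without BrQ replicate 1 it was 0.58 (adjusted p = 0.0532, edgeR). Without Vehicle replicate 1 it was 0.33 (adjusted p = 0.153, edgeR) and without Vehicle replicate 3 it was 0.49 (adjusted p = 0.0594, edgeR). With the replicate number as a block the adjusted p was 0.0788 (edgeR).

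Map3k7, the TAK1 kinase, did not pass. Its read counts were 2113 and 1988 in BrQ against 1909 and 2104 in Vehicle, so the raw reads of the groups overlapped. After TMM scaling it stood at 261.7 ± 7.34 CPM in BrQ and 300.1 ± 32.2 CPM in Vehicle (SD, n = 2 each). The log2 fold change was -0.20 (95% interval -0.51 to 0.11, adjusted p = 0.267, edgeR). The sign turned when library size was the only scale (0.18) and when all read rows set the library size (0.015). Map3k7 is the gene with the kappaB match in its promoter window; of the 2 members that passed, neither had a window in the table, so the match cannot be set against them.

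Otulin, the linear ubiquitin deubiquitinase, had nearly the same number of reads in every library, 2345 and 2140 in BrQ and 2331 and 2203 in Vehicle. In CPM it stood at 296.2 and 276.1 in BrQ and at 338.7 and 338.1 in Vehicle, and the scaled groups did not overlap. The log2 fold change was -0.24 (95% interval -0.53 to 0.05) and did not pass (adjusted p = 0.154, edgeR). Otulinl, its catalytically inactive paralogue, starts 50.9 kb away. Its read counts were 2296 and 2071 in BrQ against 2683 and 2951 in Vehicle, with a log2 fold change of -0.60 (SE 0.14, adjusted p = 0.00723, edgeR). Otulinl lost its call with library size alone (-0.22, adjusted p = 0.301, edgeR) and without BrQ replicate 3 (-0.53, adjusted p = 0.100, edgeR). Whether the 2 paralogues changed differently was not tested.

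Akirin2, the nuclear cofactor, had read counts of 1277 and 1099 in BrQ against 1234 and 1276 in Vehicle, and the raw reads overlapped between the groups. The scaled values were 161.3 and 141.8 CPM in BrQ and 179.3 and 195.8 CPM in Vehicle, with no overlap. The log2 fold change was -0.31 (95% interval -0.63 to 0.02) and did not pass (adjusted p = 0.109, edgeR; the lowest over the 16 alternatives was 0.0541). With library size alone the sign turned, to 0.067. The intervals of Map3k7, Otulin and Akirin2 allow a fall of up to 0.51, 0.53 and 0.63 on the log2 scale, so a missed threshold does not show that their levels were equal.

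**Figure D2:**
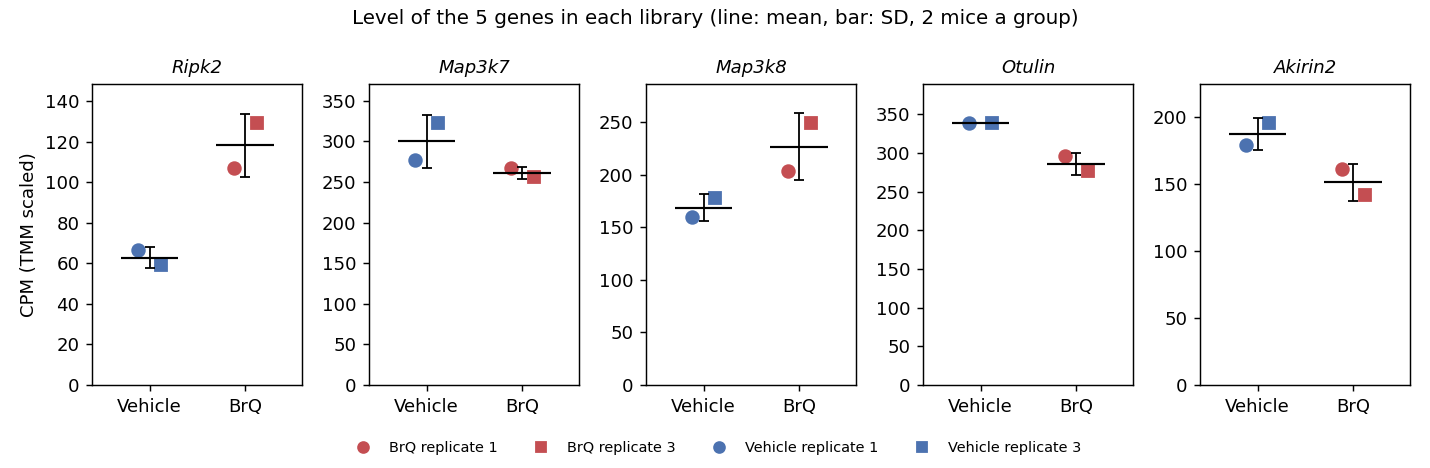
CPM (TMM scaled, axis from 0) of each of the 5 genes in each library, Vehicle in blue and BrQ in red, circles for replicate 1 and squares for replicate 3; the line is the mean and the bar the SD of 2 mice. Ripk2 and Map3k8 are higher in both BrQ libraries, and the other 3 genes are lower in BrQ on this scale without passing the test; their log2 fold changes turn to 0.067 to 0.18 with library size alone.

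Of the 5 genes, 2 were called higher in BrQ and 0 lower; at an unadjusted p under 0.05 the number lower was also 0 with edgeR as reported here, with DESeq2 and with limma voom. In 4 other edgeR fits (RLE factors, upper quartile factors, a crossed block, and without Vehicle replicate 1) Akirin2 was lower at that unadjusted level, with adjusted p from 0.0541 to 0.0851 (edgeR). Over all 10223 features tested, 45.7% were called, 23.6% as higher and 22.2% as lower, so 2 of 5 is near the background share. With TMM scaling the groups did not overlap for any of the 5 genes, and 76.1% of all features had that property, 39.9% with BrQ above and 36.2% with BrQ below. Ripk2 lay at the 77.1st percentile of all log2 fold changes and Map3k8 at the 62.8th, so larger rises were common in these libraries. The other 3 lay between the 36.8th and the 41.1st percentile. By mean CPM all 5 were among the more abundant features, from the 82.9th percentile for Ripk2 to the 94.9th for Otulin.

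**Figure D3:**
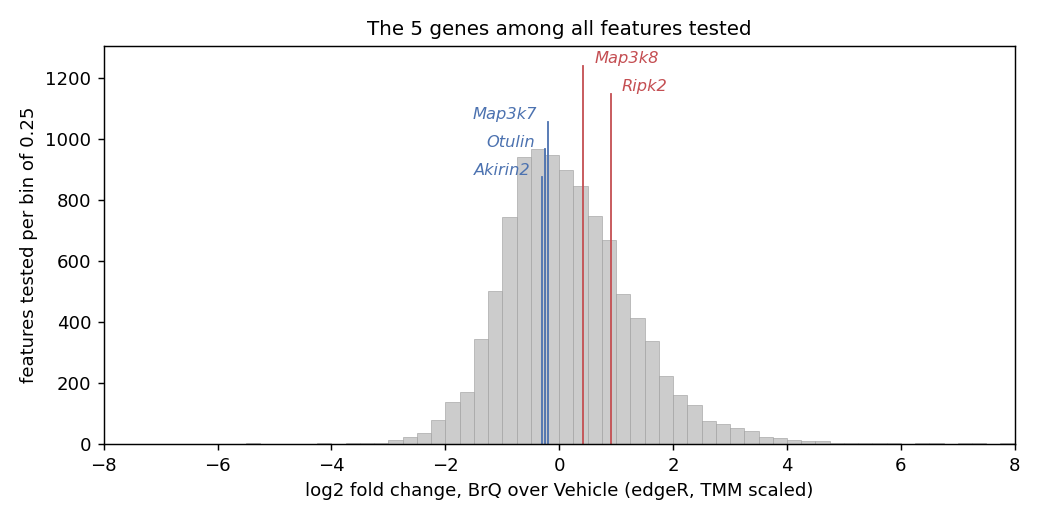
Number of features tested per bin of 0.25 in log2 fold change (BrQ over Vehicle, 10223 features), with a line at the value of each gene. The 5 genes lie in the central part of the distribution, Ripk2 farthest to the right at 0.91.

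Scaling mattered for these values. The median log2 fold change of all features tested was 0.05 with TMM factors, 0.42 with library size alone and 0.25 where all read rows set the library size. Taken relative to that median, Ripk2 stood at 0.86, 0.86 and 0.87 in the 3 cases and Map3k8 at 0.38, 0.38 and 0.39. Map3k7 stood at -0.25, -0.24 and -0.23, Otulin at -0.29, -0.29 and -0.28 and Akirin2 at -0.36, -0.35 and -0.34. A change of scale shifts all features by about the same amount, so these relative values are a description and no sign of stability. As CPM of all read rows, Ripk2 and Map3k8 alone of the 5 kept the groups apart. Ripk2 had 13.7 and 16.2 in BrQ against 7.51 and 6.26 in Vehicle. Map3k8 had 26.0 and 31.2 against 18.0 and 18.8. On this scale 76% of all features kept the groups apart, against 2 of the 5 genes.

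**Figure D4:**
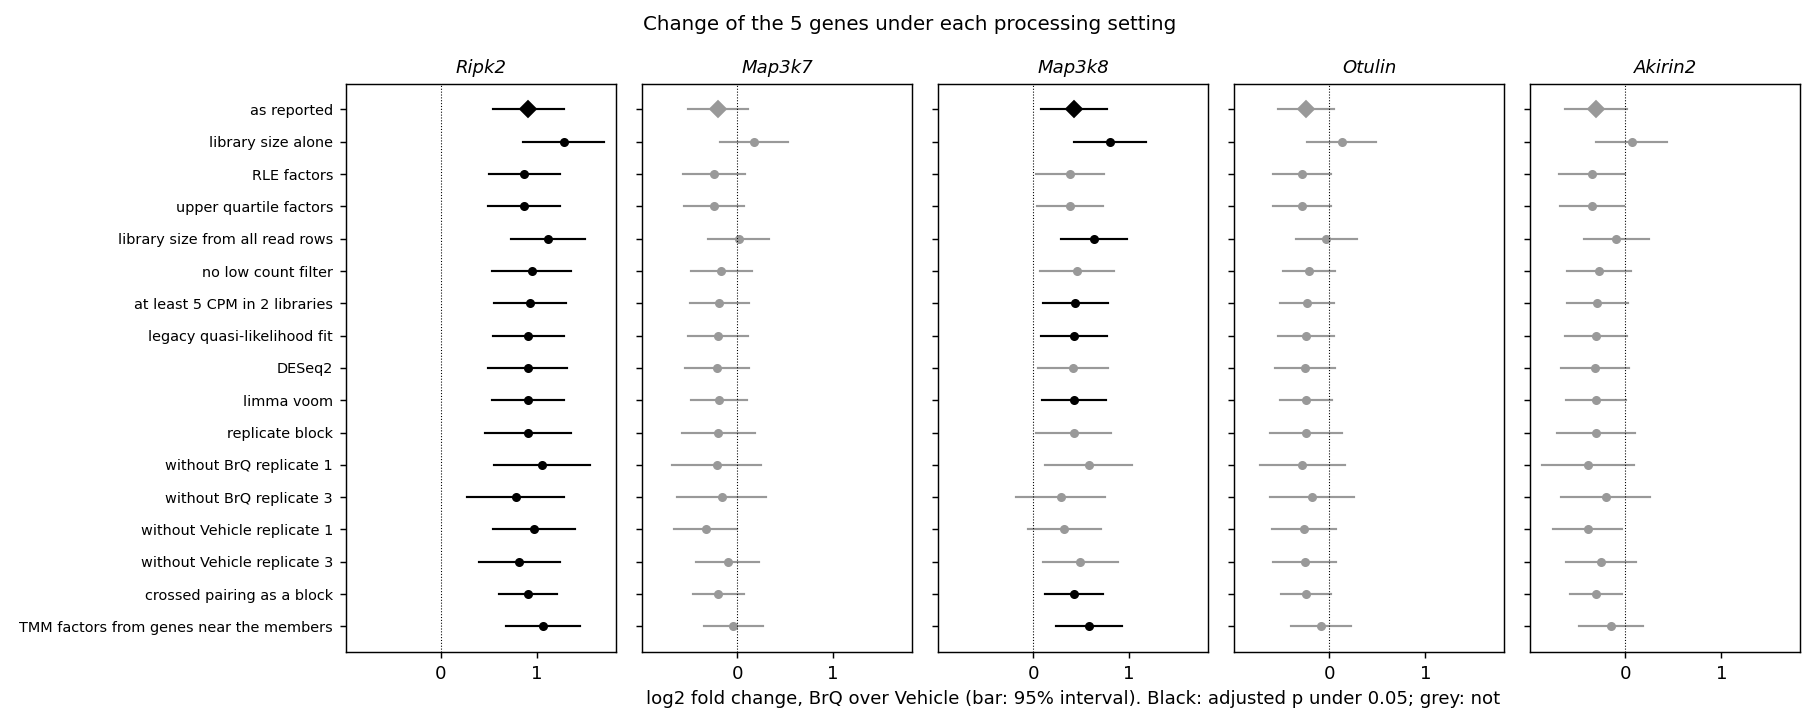
Log2 fold change (BrQ over Vehicle) with its 95% interval for each gene under the reported setting (diamond) and 16 alternatives (circles); black marks adjusted p under 0.05 and grey the rest. Ripk2 is black in every line, Map3k8 in 8 of 17, and the other 3 genes in none.

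Ratios between 2 of the genes within a library need no scaling. For each read of Map3k7 there were 0.401 and 0.504 reads of Ripk2 in BrQ replicates 1 and 3, and 0.239 and 0.183 in Vehicle replicates 1 and 3. The log2 ratio differed by 1.10 between the groups. For each read of Otulin there were 0.362 and 0.468 reads of Ripk2 in BrQ and 0.196 and 0.175 in Vehicle. Ripk2 thus stood higher against both genes in each BrQ library.

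Map3k8 against Map3k7, the pair of MAP3 kinases, moved in the same sense. For each read of Map3k8 there were 1.31 and 1.03 reads of Map3k7 in BrQ and 1.74 and 1.82 in Vehicle. Ripk2 against Map3k8 gave 0.525 and 0.519 in BrQ and 0.416 and 0.333 in Vehicle, so of the 2 genes called higher the ratio also differed, by 0.49 on the log2 scale. The ratio of Otulin to Akirin2 overlapped between the groups, at 1.84 and 1.95 in BrQ and 1.89 and 1.73 in Vehicle, as did that of Map3k7 to Otulin. Of the 10 ratios among the 5 genes, these 2 were the ones that overlapped. The 10 ratios share the same 5 genes, so they are not independent. How often ratios of other gene pairs keep the groups apart was not computed. With TMM scaling, 76.1% of single features did so. With 2 mice per group a two-sided exact permutation test cannot go below p = 0.33, so no test of the ratios is given.

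Per exon length, as CPM (TMM scaled) per kilobase of annotated exon, Otulin had the highest level and Ripk2 the lowest in Vehicle. The Vehicle means were 199.9 ± 0.253 for Otulin, 109.6 ± 6.83 for Akirin2, 46.7 ± 5.01 for Map3k7, 37.5 ± 2.88 for Map3k8 and 22.3 ± 1.80 for Ripk2 (SD, n = 2 each). No neighbours in this order overlapped in Vehicle. In BrQ the means were 169.0 ± 8.38 for Otulin, 88.6 ± 8.06 for Akirin2, 50.3 ± 7.11 for Map3k8, 42.0 ± 5.57 for Ripk2 and 40.7 ± 1.14 for Map3k7. There the values of Ripk2 (38.0 and 45.9) overlapped those of Map3k7 (41.6 and 39.9) and of Map3k8 (45.3 and 55.3), so Ripk2 could not be placed against them, while both values of Map3k8 lay above both of Map3k7. The exon lengths, 1693 bases for Otulin to 6423 for Map3k7, are those of GENCODE M21; the annotation the authors counted with is unknown, and levels between genes rest on it.

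**Figure D5:**
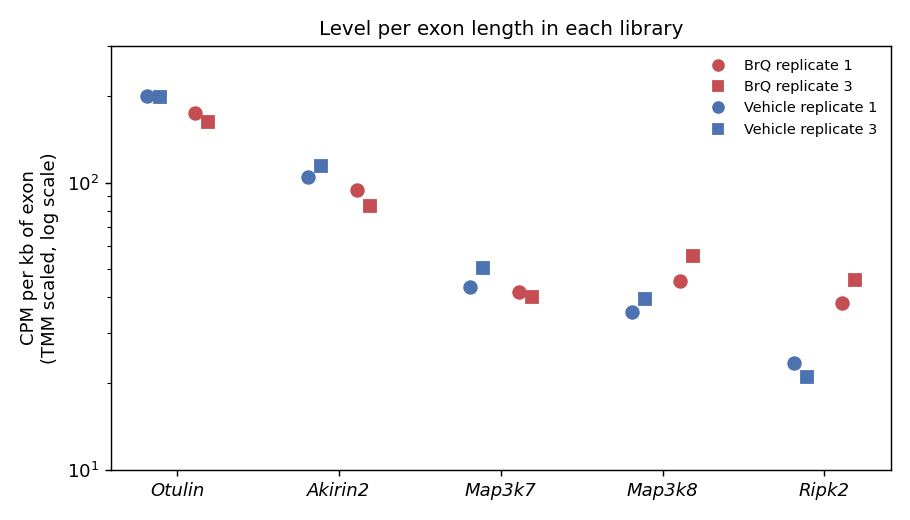
CPM (TMM scaled) per kilobase of exon, on a log axis, of the 5 genes in each library, Vehicle in blue and BrQ in red, circles for replicate 1 and squares for replicate 3. Otulin and Akirin2 stand above the 3 kinases in each library, and Ripk2 lies below the other kinases in Vehicle and in BrQ replicate 1, and between them in BrQ replicate 3.

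The genes around each member whose profile over the 4 libraries was most like its own were found by Euclidean distance between centred log2 CPM profiles. Distances over 4 libraries describe these libraries only. For Ripk2 the nearest of 4 was Tmem64, a membrane protein (distance 0.35), with read counts of 1295 and 1221 in BrQ against 756 and 633 in Vehicle and a log2 fold change of 0.63 (SE 0.15, adjusted p = 0.00718, edgeR). The call of Tmem64 was lost without BrQ replicate 1 (adjusted p = 0.0505, edgeR) and without BrQ replicate 3 (adjusted p = 0.0564, edgeR). The next, Osgin2, was much farther, at 1.07. For Map3k8 the nearest of 6 were Svil, which encodes the actin-binding protein supervillin (0.30; log2 fold change 0.55, adjusted p = 0.0151, edgeR), and Cul2, a cullin of ubiquitin ligases (0.35; 0.27, adjusted p = 0.216, edgeR). The call of Svil was lost with no low count filter (0.58, adjusted p = 0.0564, edgeR). It was also lost without BrQ replicate 1, BrQ replicate 3 or Vehicle replicate 3, at log2 fold changes of 0.62, 0.50 and 0.45. Cul2 passed in 2 of 17 settings, library size alone (0.64, adjusted p = 0.0134, edgeR) and all read rows (0.48, adjusted p = 0.0468, edgeR).

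These neighbours were chosen for their likeness, so their fold changes support nothing about the members. Map3k7 was nearest to Mdn1, a ribosome assembly factor (0.25), and Bach2, a transcription factor of B and T cells (0.38), of 5. Otulin was nearest to Ank, a pyrophosphate transport protein (0.10), and then Otulinl (0.38), of 3. Akirin2 was nearest to Slc35a1, the CMP-sialic acid transporter (0.13), and Smim8 (0.16), of 8. Of these genes Otulinl was the one that passed in the reported fit. Slc35a1 did not pass there (-0.38, adjusted p = 0.0967, edgeR). It passed in 2 of 17 settings, among them the crossed block (-0.38, adjusted p = 0.0346, edgeR). Among the members, Otulin and Akirin2 were closest to each other (0.13), Map3k7 lay within 0.17 of both, and Ripk2 was closest to Map3k8 (0.54).

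In whole lymph node RNA, fewer cells of a type and less RNA per cell cannot be told apart. Of 32 marker genes of B cells, T cells, myeloid cells and stroma, 5 lay within 20 Mb of a member on the same chromosome and had enough reads for the test. Ccl19 and Ccl21a of lymph node stroma lay 8.21 and 8.22 Mb from Akirin2, nearer than Cd72 (8.90 Mb), and were not tested. Ccl21a had 0 reads in all 4 libraries, and Ccl19 had 27 and 8 in BrQ and 5 and 0 in Vehicle. That the 5 tested names hold their own reads was not shown either. Cd72, a surface protein of B cells, fell by 1.01 in BrQ (log2; SE 0.12, adjusted p = 0.000285, edgeR). Pax5, the B cell transcription factor, did not pass (-0.22, adjusted p = 0.155, edgeR). Sit1, a T cell signalling adaptor, and Il7r, the interleukin 7 receptor, fell by 0.78 and 0.61 (adjusted p = 0.00362 and 0.00616, edgeR), and Tox, a T cell transcription factor, rose by 0.72 (adjusted p = 0.00682, edgeR). With library size alone Il7r and Sit1 lost the call, as did Il7r and Tox without BrQ replicate 1 (adjusted p = 0.0818 and 0.0617, edgeR) and Sit1 without BrQ replicate 3 (adjusted p = 0.0582, edgeR). Their part in the values of the 5 genes was not tested.

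The whole marker list gave the same mixed picture, and its names were not shown to sit on their own reads. Of the 32 genes 14 were tested, and 2 were called higher and 5 lower in BrQ, beside 45.7% of all features called; 7 had 0 reads in all 4 libraries, Ccl21a of lymph node stroma among them. Summed over the list, the B cell markers stood at 2408 to 2483 CPM (library size alone) in BrQ and 2784 to 3099 in Vehicle; nearly all of these reads were those of Cd72 and Pax5. The interval labelled Cd79b, a B cell receptor subunit, was called higher (0.81, adjusted p = 0.0279, edgeR), and that labelled Cd79a, at 5 to 20 reads, stood at 1.38 and did not pass (adjusted p = 0.0892, edgeR). The T cell markers stood at 1104 to 1188 in BrQ and 1259 to 1393 in Vehicle. Those of myeloid cells were at 16.3 to 19.2 against 15.1 to 18.0, and those of stroma and endothelium at 15.9 to 19.6 against 20.1 to 21.9.

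The other genes of the pathway could not be read. None of 70 listed receptors, adaptors, kinases, ubiquitin regulators, NF-kB subunits, Akirin partners and targets lay within 20 Mb of a member, and the closest was 32.3 Mb away. Of the 70, 20 had 0 reads in all 4 libraries. Under their names 37 were tested, 7 were called higher and 9 lower in BrQ, with a median log2 fold change of -0.10 beside 0.05 over all features, of which 45.7% were called. The balance moved with the scale: library size alone gave 12 rises and 4 falls, all read rows 11 and 8, and TMM factors from genes near the members 10 and 8. These are values of intervals that were not shown to hold reads of those genes, and none is described by name.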

How the data were processed

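RNA of 4 lymph nodes was sequenced in paired ends, 1 library per mouse, per the labels' protocols. The submitters' processing notes name HTSeq 0.11.2, HISAT2 2.1.0, Trim Galore 0.6.2 and the mm10 build. The annotation used and its strand setting were not given in the sources used here. Each deposited table holds raw counts of reads per gene. Rows that name no gene held 87.0% to 89.0% of all read rows and were left out of library sizes and tests. Groups and numbers came from the titles. The libraries of a group differed beyond sampling noise (chi-square per degree of freedom 8.45 in BrQ, 16.9 in Vehicle).

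edgeR 4.0.16 (quasi-likelihood, filterByExpr, TMM, group as the only term) in R 4.3.3 was fitted on all features, with p-values adjusted by Benjamini-Hochberg and called under 0.05. The fit was also run on simulated counts. These had the same dispersion for every feature and far fewer changed features than were called here. That run therefore does not vouch for the calls. Log2 CPM used a prior count of 2. Alternatives were other scales and filters, the legacy fit, leaving out each library, a replicate block, limma 3.58.1 voom and DESeq2 1.42.0; 2 were added after the data were seen. Genes named are the 5 members, the 2 tested neighbours within 1000 kb most like each, members of the lists, and a few neighbours chosen after their values were seen. Members and lists were chosen with earlier results of these data known. With 1 library per mouse, p-values rest on these 4 mice only. The quasi-likelihood fit takes the spread of a gene partly from the other features, most of whose names look displaced. Figures were drawn with matplotlib 3.10.9.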

Additional observations from a re-analysis of the deposited data

How the results depend on the processing

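Ripk2 kept its direction and its call under all 16 alternatives. The number of the 5 genes called fell from 2 to 1 with RLE factors, upper quartile factors, no low count filter, DESeq2 and the replicate block, and was 1 to 1 with each library left out. The gene lost was Map3k8, with log2 fold changes of 0.38 with RLE factors (adjusted p = 0.0713, edgeR) and 0.38 with upper quartile factors (adjusted p = 0.0646, edgeR), 0.46 with no low count filter (adjusted p = 0.123, edgeR), 0.42 with DESeq2 (adjusted p = 0.0671) and 0.42 with the replicate block (adjusted p = 0.0788, edgeR), and 0.29 to 0.58 with a library left out. With library size alone Map3k7, Otulin and Akirin2 turned to 0.18, 0.13 and 0.067, and where all read rows set the library size Map3k7 turned to 0.015. None of the 3 passed under any setting.

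Over all features 4676 passed, 2481 with no low count filter, and 2031 to 4376 with a library left out. The share called higher was 51.5%, against 77.1% with library size alone, 65.8% with all read rows and 62.3% with TMM factors from genes near the members. The pathway list gave 16 calls, 10 with no low count filter and 8 to 17 with a library left out. Same-numbered libraries had deviations correlated at -0.12 across features. That value rests on 2 pairs and cannot show whether the replicate numbers mark pairs. The labels give no batch, and group was the only term in the reported fit. The replicate block gave 4190 calls and a crossed pairing, added after the data were seen, 5284, with 1 and 2 of the 5 genes.

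Among the neighbours and markers, some signs turned, also of values as far from 0 as that of Smim8 (-0.36). With library size alone these were Osgin2 (0.27), Mdn1 (0.078), Bach2 (0.36), Ank (0.20), Smim8 (0.013) and Pax5 (0.15); with all read rows Osgin2 (0.11), Bach2 (0.20) and Ank (0.036). Bach2 also turned with no low count filter (0.029), at least 5 CPM in 2 libraries (0.0098) and TMM factors from nearby genes (0.15), as did Osgin2 with the last (0.055). With a library left out Bach2 ranged from -0.11 to 0.076 and Osgin2 from -0.22 to 0.037. The cause was not tested. With 2 mice a group an SD rests on 2 values.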
